A study of Mus musculus with 2 samples.

Results

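The genes described here are 55 transcripts of sugar metabolism, chosen by symbol: the enzymes of glycolysis and lactate formation, of glycogen, of the pentose phosphate and hexosamine pathways, some enzymes of glycerol phosphate, and the hypoxia factors with their regulators. All 55 symbols were found among the 24346 symbols listed for each library. RNA sequencing was compared between 1 library of mouse heart tissue labelled HFD-MI (high-fat diet and myocardial infarction) and probucol, a lipid-lowering drug with antioxidant action, and 1 library of HFD-MI heart tissue labelled untreated. Both carry the age label day 14, without the event from which days were counted, and both share the diet and the infarction, so no heart without infarction is set against them. The labels give no genotype, sex, number of animals or region of the heart. The column headers of both libraries carry the mark HypoE, which the labels do not explain. With 1 library a group there is no test and no replicate check, and every difference below describes these libraries.

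Glycolysis splits glucose into pyruvate and yields energy without oxygen, and lactate dehydrogenase turns pyruvate into lactate and back. Glycogen is the glucose store of muscle, the pentose phosphate pathway makes NADPH and ribose from glucose phosphate, and the hexosamine pathway makes the sugar donor for protein glycosylation. Many of these enzymes exist as isoforms from separate genes: heart and skeletal muscle use their own phosphofructokinase, phosphoglycerate mutase, enolase and glycogen phosphorylase, while fibroblasts, blood vessels and leukocytes use others. The adult heart burns mainly fatty acids and also takes up lactate, and the transcription factor Hif1a raises many glycolytic genes when oxygen is low.

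Promoters are shown for 3 enzyme families in which a muscle or heart isoform stands beside an isoform of other cells. The log2 ratios of the muscle or heart form and the form set beside it had opposite signs. In the phosphorylase family this holds for Pygl, which is low in both libraries, and not for the abundant Pygb, which is not shown. Opposite signs were also found for Pfkm and Pfkp, Eno3 and Eno1, Hk2 and Hk3, and Pfkfb2 and Pfkfb4. The promoters of these pairs are not shown, so opposite signs do not single out the families shown. The 6 sequences are the 250 bases before a RefSeq start of each gene (RefSeq, GRCm38.p6), written 5′ to 3′ along the gene, and such starts can differ from those of other annotations. For Ldha, which has 2 starts in the table, the first was taken. For Pgam2, Pgam1 and Ldha, the bases just after the window were not found near the beginning of a GENCODE M21 transcript of the gene. For the other 3 genes they were. The Ldha and Pygl windows lie inside the spans of their genes in that annotation (46841475 to 46855627 and 70190811 to 70231488). Capitals mark matches on either strand to ACGTG or GCGTG, the core letters of hypoxia factor sites, to CAGCTG, an E-box of muscle gene regulators, and to the MEF2 motif. A CACGTG holds ACGTG on both strands and was counted as 2 matches.
Pgam2, chr11:5803797-5804046, minus strand: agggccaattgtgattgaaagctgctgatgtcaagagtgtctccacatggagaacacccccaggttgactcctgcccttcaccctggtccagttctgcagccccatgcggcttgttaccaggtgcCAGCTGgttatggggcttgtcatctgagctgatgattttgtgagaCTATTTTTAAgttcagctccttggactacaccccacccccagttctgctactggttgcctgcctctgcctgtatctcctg
Pgam1, chr19:41911621-41911870, plus strand: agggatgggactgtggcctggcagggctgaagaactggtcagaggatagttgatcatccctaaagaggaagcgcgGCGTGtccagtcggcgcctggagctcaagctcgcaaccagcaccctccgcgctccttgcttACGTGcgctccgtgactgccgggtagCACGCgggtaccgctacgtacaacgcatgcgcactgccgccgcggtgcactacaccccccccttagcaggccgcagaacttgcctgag
Pygm, chr19:6384158-6384407, plus strand: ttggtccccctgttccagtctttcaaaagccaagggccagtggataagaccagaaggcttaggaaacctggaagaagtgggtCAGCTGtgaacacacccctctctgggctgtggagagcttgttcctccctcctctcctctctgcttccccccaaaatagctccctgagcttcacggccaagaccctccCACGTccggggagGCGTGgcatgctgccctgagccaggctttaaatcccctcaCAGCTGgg
Pygl, chr12:70227684-70227933, minus strand: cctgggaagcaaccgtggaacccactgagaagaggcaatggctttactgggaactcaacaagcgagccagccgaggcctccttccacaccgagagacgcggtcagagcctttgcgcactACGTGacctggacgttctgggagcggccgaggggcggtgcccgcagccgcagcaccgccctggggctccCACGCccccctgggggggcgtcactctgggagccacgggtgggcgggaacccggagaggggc
Ldhb, chr6:142507958-142508207, minus strand: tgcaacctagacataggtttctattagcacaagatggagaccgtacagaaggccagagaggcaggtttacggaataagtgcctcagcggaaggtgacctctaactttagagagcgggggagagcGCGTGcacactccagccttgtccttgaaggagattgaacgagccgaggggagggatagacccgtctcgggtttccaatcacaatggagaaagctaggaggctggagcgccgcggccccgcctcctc
Ldha, chr7:46845554-46845803, plus strand: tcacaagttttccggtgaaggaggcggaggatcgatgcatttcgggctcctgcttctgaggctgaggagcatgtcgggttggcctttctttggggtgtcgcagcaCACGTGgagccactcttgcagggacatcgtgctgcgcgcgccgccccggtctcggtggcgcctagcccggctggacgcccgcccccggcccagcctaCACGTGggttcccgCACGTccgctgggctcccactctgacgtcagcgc

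Among the sequences shown, the Pgam2 window held 1 CAGCTG and 1 MEF2 match and no hypoxia core, and the Pgam1 window held 1 ACGTG, a further 2 matches to the other hypoxia core and neither muscle motif. The Pygm window held 2 CAGCTG, the nearest starting 8 bases before the RefSeq start. In GENCODE M21 the gene begins at 6384399, within this window, so the nearest match lies just inside the gene there. The Ldha window shown held 5 matches to ACGTG at 3 sites, and the window of its other start held 0 of them and 1 GCGTG. Windows were available for 52 of the 55 genes. In the muscle list defined below, 6 of 12 genes had CAGCTG in a window and 1 had a MEF2 match, against 0 of 13 for both motifs in the list of other cells. Among the muscle or heart forms of the pairs not shown, Pfkm, Eno3 and Hk2 had neither motif in any window, and Pfkfb2 had CAGCTG. Over all 32851 windows of the table, 13.0% held CAGCTG and 2.92% a MEF2 match, while 16.6% held ACGTG and 28.2% held the other hypoxia core. In the muscle list 6 of 12 genes had ACGTG, against 6 of 13 in the list of other cells. For GCGTG the counts were 6 of 12 and 11 of 13. Genes differ in how many starts they have, 7 motifs were searched and 4 are shown, so these counts are a description of letters and not of binding.

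Most of the 55 genes were well measured in both libraries. The levels are in FPKM, a count of fragments per kilobase of transcript relative to all mapped fragments, and differences are given as log2((FPKM probucol + 0.5)/(FPKM untreated + 0.5)), a scale that understates differences of low genes. Judged by the spacing of low values, 1 FPKM over 1 kb of effective length was 6.67 fragments with probucol and 7.49 without, so the depths were similar. A mean of at least 0.5 FPKM was reached by 54 genes. The remaining gene, Aldoc, an aldolase of brain, had 0.0604 FPKM with probucol and was listed at 0 without. The highest were Aldoa, Gapdh, Ldhb and Eno3, and 17 genes averaged at least 100 FPKM.

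The genes moved in both directions, with higher values concentrated among muscle isoforms. At least 1.5-fold higher with probucol were 11 of the 54 genes (20.4%), against 5.52% of all 12882 genes past the same filter, and 6 (11.1%) were at least 1.5-fold lower, against 12.0% of all genes. At least 2-fold higher were 0 of the 54, against 1.07% of all genes. At least 2-fold lower were 3 (5.56%), against 5.14%, so the share of lower genes was near that of all genes. The median log2 ratio of the 54 genes was 0.09, beside 0.01 over all genes. Above 0 lay 32 of the 54, beside 50.9% of all genes. In bulk tissue, fewer cells of a type and less RNA per cell cannot be told apart.

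The cells represented in the tissue differed between the libraries, which bears on every result below. All 12 cardiomyocyte markers were above 0 in log2 ratio (median 0.49, summed level 74918 FPKM with probucol and 53985 without), and none was listed at 0 in either library, so the markers of the labelled tissue were present. The 10 macrophage markers each had a fold of 1.5 or more in the lower direction (median -1.61, summed level 1088 and 3604 FPKM), and none was listed at 0. The 7 fibroblast markers had a median of -0.87 (summed level 884 and 1521 FPKM) and the 6 endothelial markers 0.01 (277 and 284 FPKM), with none listed at 0. All 5 proliferation markers, Mki67 and Top2a among them, were at least 2-fold lower (median -1.62, summed level 7.71 and 29.8 FPKM). Among 8 skeletal muscle markers, Myh2 and Myh4 were listed at 0 in both libraries. Myh1 had 0.0257 FPKM with probucol and was listed at 0 without. Actn3 and Pvalb were listed at 0 with probucol and had 0.150 and 0.771 FPKM without. The 3 past the filter, Tnni2, Mylpf and Tnnt3, were low but had log2 ratios of 0.87, 0.71 and 0.37. Tnni2, the highest of them, had 5.21 and 2.63 FPKM from about 18 and 10 fragments, and the intervals of all 3 include equal levels. The list summed to 7.90 and 5.001 FPKM. Scaled so that the cardiomyocyte markers have a median of 0, log2 ratios drop by about 0.49, the median of all genes becomes -0.43, and 0 of the 54 genes are at least 1.5-fold higher and 18 at least 1.5-fold lower, in place of 11 and 6. Under that scaling 1.09% of all genes are higher and 33.3% lower by that limit, and the 18 of 54 match the share of all genes. Most positive log2 ratios below 0.49 given here are then negative, though genes of low level drop by less because 0.5 FPKM is added to each value. What part cell numbers had in the differences was not tested.

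Muscle isoforms were higher with probucol and isoforms of other cells mostly were not. The muscle list held Hk2, Pfkm, Pfkfb2, Aldoa, Pgam2, Eno3, Ldhb, Gys1, Pygm, Phka1, Phkg1 and Fbp2. It includes the heart forms Ldhb and Pfkfb2, and Aldoa, which many other cells also use. All 12 lay above 0, from 0.11 to 0.95 with a median of 0.60, and 8 were at least 1.5-fold higher; scaled to the cardiomyocyte markers the median is 0.11 and Hk2, Aldoa and Phkg1 lie below 0. The list of other cells held Hk1, Hk3, Pfkp, Pfkl, Pfkfb3, Pfkfb4, Aldoc, Pgam1, Eno1, Eno2, Ldha, Pygb and Pygl, of which 12 passed the filter. Their median was -0.30, with 9 below 0, 3 at least 1.5-fold lower and 0 higher. Over all genes 12.0% were lower and 5.52% higher by that limit, and 50.9% lay above 0. Of the 3, Eno1 is uncertain, as described below. Ldha, commonly named the muscle form of lactate dehydrogenase, stands in the list of other cells although it was high in both libraries (855 and 930 FPKM). The medians of the lists differ by 0.90 on the log2 scale, and a common scaling of either library leaves that distance nearly as it is. Just inside the 1.5-fold limit, at 0.60, were Pfkm, Pgam2 and Gys1, and just outside it was Eno3 at 0.55.

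**Figure D1:**
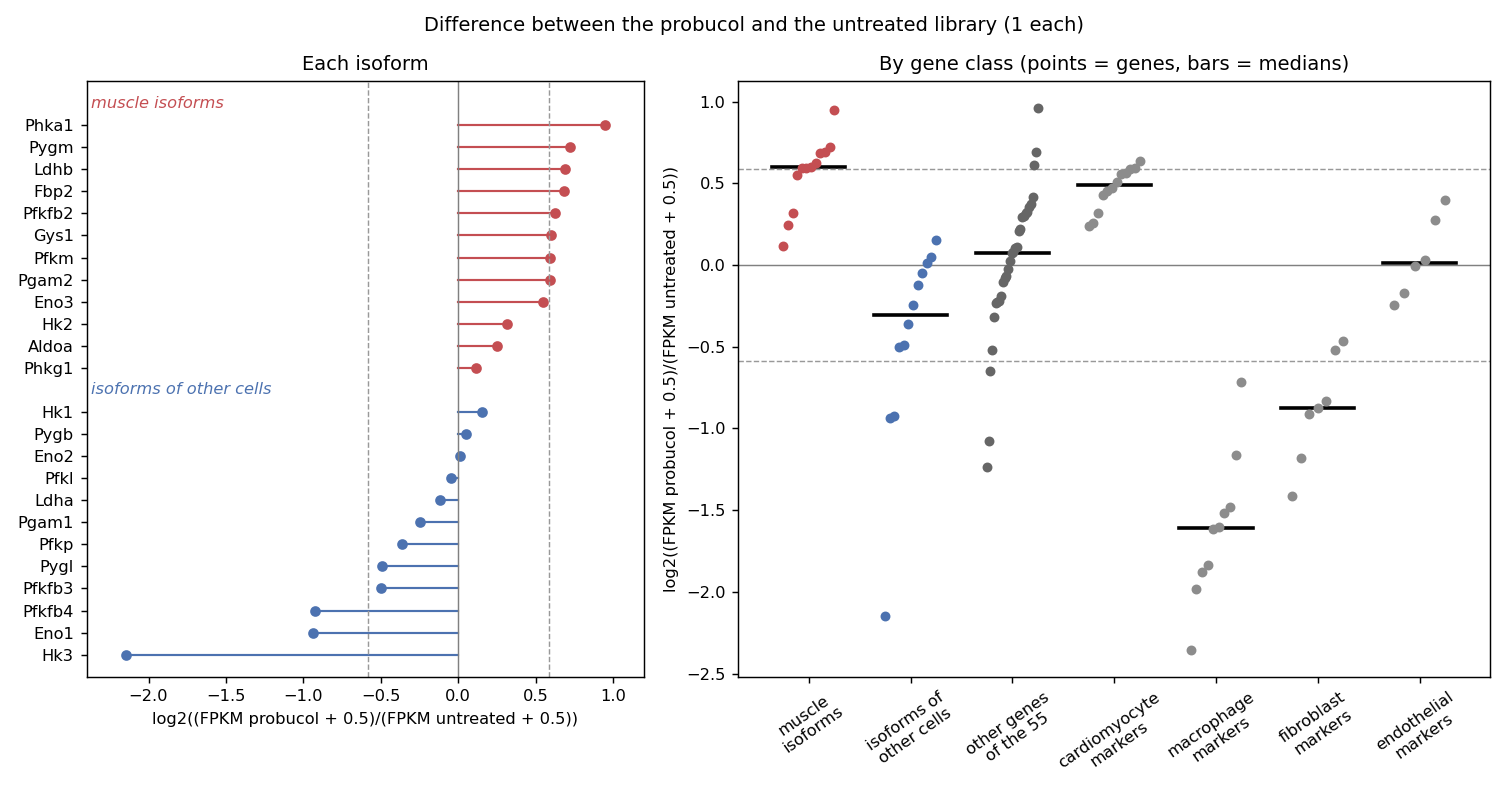
Log2 ratio of probucol over untreated FPKM (0.5 added to each) for every muscle isoform and isoform of other cells (left) and for gene classes (right), where other genes are the 30 in neither list, from 1 library each, with bars for medians and dashed lines at 1.5-fold. Muscle isoforms lie between 0.11 and 0.95, near the cardiomyocyte markers (median 0.49), and isoforms of other cells reach down to Hk3 at -2.14, among the macrophage markers (median -1.61); scaled to the cardiomyocyte markers, Hk2, Aldoa and Phkg1 lie below 0.

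Within enzyme families, the isoform of the muscle list took a larger share of the family's FPKM with probucol in 7 of 8 families. This share is formed inside each library, so scaling between libraries does not enter it. Ldhb, the heart form of lactate dehydrogenase, had 67.7% of Ldha and Ldhb together with probucol and 54.4% without. Pfkfb2, the heart form of the enzyme that makes or removes the activator of phosphofructokinase, had 78.4% and 66.1% of its family. Pygm, the muscle glycogen phosphorylase, had 70.7% and 60.0%. These are the widest gaps, of 13.3, 12.3 and 10.7 percentage points. Pfkm, the muscle phosphofructokinase, had 86.0% and 78.2%, Pgam2 had 91.0% and 84.9%, and Eno3, the muscle enolase, had 97.5% and 93.2%. Hk2, the hexokinase of insulin-sensitive tissue, had 48.6% and 43.2%, and Hk1 stayed at 50.5% and 50.4%, so the gap was taken up by Hk3. The 8th family, aldolase, was formed of Aldoa and Aldoc and was 100% Aldoa in both libraries to 3 digits. Aldoa is also used by many other cells. In fragments estimated from transcript length, the Ldhb share was 68.2% with probucol (exact binomial 95% interval 67.6 to 68.9%) and had an interval of 54.3 to 55.8% without, and that of Pfkfb2 was 75.3% (70.4 to 79.7%) and 58.7% (53.1 to 64.1%). Such intervals cover counting error only.

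**Figure D2:**
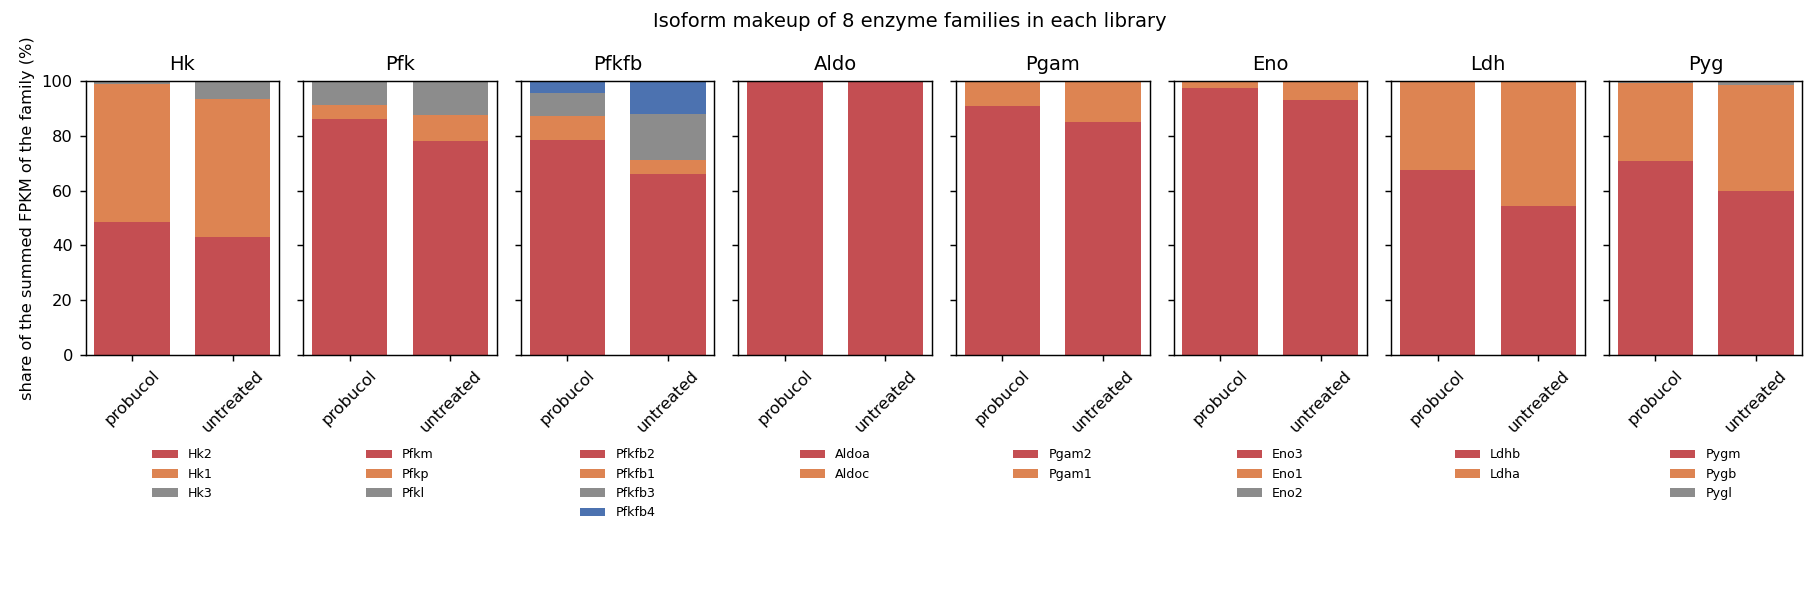
Share of each isoform in the summed FPKM of its enzyme family, in percent, in the probucol and the untreated library (1 each). The isoform of the muscle list, for Ldh and Pfkfb a heart form, is at the bottom of each bar in red. The red part is taller with probucol in 7 families, most for Ldhb (67.7% and 54.4%), and fills the aldolase bars in both libraries.

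Hexokinase, which traps glucose as glucose phosphate, held the lowest ratio of the set. Hk3, a hexokinase of leukocytes (chromosome 13, 55005985 to 55021385, minus strand, GRCm38), had 1.11 FPKM with probucol and 6.64 FPKM without, a log2 ratio of -2.14 and the lowest of all 54 genes. It rested on about 20 and 133 fragments, and the FPKM ratio had an interval of 0.09998 to 0.272. Hk3 lay in the range of the macrophage markers, from -2.35 to -0.72. The 5 neutrophil markers, of another leukocyte, went both ways, from Csf3r (-1.11) to Retnlg (0.88) with a median of 0.49 and a summed level of 145 and 102 FPKM, and their part and that of macrophages in Hk3 was not tested. Hk1, the general hexokinase bound to mitochondria, had 57.4 and 51.6 FPKM, and Hk2 had 55.2 and 44.2 FPKM. Both were high and differed little (log2 ratios 0.15 and 0.32, negative when scaled to the cardiomyocyte markers).

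Phosphofructokinase commits sugar to glycolysis. Pfkm had 418 FPKM with probucol and 276 FPKM without (0.60), whereas Pfkp, the platelet form, had 25.3 and 32.7 FPKM (-0.36). Of the 4 platelet markers past the filter, Gp9, Ppbp and Itga2b were higher (3.16, 2.07 and 2.07) and Pf4 was lower (-1.04), with a summed level of 79.8 and 115 FPKM over the list of 5, and their part in Pfkp was not tested. Pfkl, the liver form, had 43.0 and 44.5 FPKM (-0.05). Pfkm and Pfkp therefore differed in direction within this step, while the interval of Pfkl, 0.887 to 1.05 for the FPKM ratio, includes equal levels. Scaled to the cardiomyocyte markers all 3 are shifted down and only Pfkm is above 0. Gpi1, the isomerase before it, had 251 and 215 FPKM. Aldoa, the aldolase of muscle and of many other cells, had 2025 and 1706 FPKM, and Tpi1, which interconverts the triose phosphates, had 740 and 685 FPKM. These 3 enzymes had small positive ratios, 0.22, 0.25 and 0.11, which are negative when scaled to the cardiomyocyte markers. Of them, Aldoa is counted in the muscle list although it is not confined to muscle.

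The Pfkfb enzymes make or remove fructose 2,6-bisphosphate, the activator of phosphofructokinase, and divided into higher and lower members. Pfkfb1, known from liver and skeletal muscle, had 3.02 FPKM with probucol and 1.31 FPKM without, from about 31 and 15 fragments. Its log2 ratio of 0.96 was the highest of all 54 genes, with a wide interval of 1.22 to 4.63 for the FPKM ratio. Pfkfb2 had 26.6 and 17.1 FPKM (0.63). Pfkfb3, the inducible form of stimulated and dividing cells, had 2.89 and 4.30 FPKM (-0.50), and its interval of 0.380 to 1.11 includes equal levels. Pfkfb4, another inducible form, had 1.42 and 3.14 FPKM (-0.92) from about 31 and 77 fragments. Both inducible forms, low in each library, were thus lower with probucol by FPKM.

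In lower glycolysis the muscle mutase and enolase were higher, the general mutase and enolase had ratios below 0, and the neuronal enolase was near 0. Pgam2, the muscle phosphoglycerate mutase (chromosome 11, 5801640 to 5803733, minus strand), had 861 FPKM with probucol and 570 FPKM without, and Pgam1, the general form, had 85.3 and 101 FPKM (-0.25). Their promoters, printed above, share no motif among those marked. Eno3 had 1337 and 914 FPKM. Eno2, the neuronal enolase, was near the filter at 0.577 and 0.569 FPKM, about 8 and 9 fragments.

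Eno1, the general enolase (chromosome 4, 150236721 to 150248879), had 34.1 FPKM with probucol and 65.7 FPKM without, a log2 ratio of -0.94 that is uncertain. The files also list Eno1b, a copy of Eno1 without introns, at 29.1 and 20.8 FPKM (0.48), so fragments could have been divided between the copies. The sum of both had 63.2 and 86.5 FPKM, a log2 ratio of -0.45, which is within the 1.5-fold limit. The counts of lower genes, the shares of the enolase family and the summed enolase step leave out Eno1b.

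The remaining enzymes of lower glycolysis, which all cell types use, stayed within 1.5-fold. Gapdh had 1896 and 1517 FPKM (0.32), Pgk1, which makes ATP, had 424 and 455 FPKM (-0.10), and Pkm, the pyruvate kinase of muscle and most other tissues, had 509 and 474 FPKM (0.10). The ratio is negative for all 3 when scaled to the cardiomyocyte markers. The FPKM of Pkm covers both of its splice forms together, and these were not told apart.

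Summed over isoforms, 10 of the 11 steps from hexokinase to lactate dehydrogenase were higher with probucol in deposited FPKM. The highest ratios were those of phosphoglycerate mutase (946 and 671 FPKM, 0.50), enolase (1371 and 980 FPKM, 0.48) and phosphofructokinase (486 and 354 FPKM, 0.46), each dominated by a muscle isoform. Phosphoglycerate kinase was the step below 0. Hexokinase had the lowest summed level, 114 and 102 FPKM. Since the cardiomyocyte markers had a median of 0.49, 1 step, phosphoglycerate mutase, stays just above 0 when scaled to them.

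At lactate dehydrogenase the heart form was higher and the other form was not. Ldhb, whose product favours turning lactate into pyruvate (chromosome 6, 142490249 to 142507957, minus strand), had 1791 FPKM with probucol and 1109 FPKM without (0.69). Ldha, whose product favours making lactate and which is a known target of Hif1a, had 855 and 930 FPKM (-0.12). Ldhb was the higher of the pair in both libraries, by more with probucol. The Ldha window shown held 3 separate hypoxia core sites, 2 of them counted on both strands, while the window of the other Ldha start held 1 GCGTG, as did the Ldhb window.

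Glycogen genes were mostly higher with probucol. Of 6 genes of synthesis, 5 lay above 0 (median 0.33), 2 passed 1.5-fold upward and 1, Pgm1 (-1.08), passed it downward. Of 5 genes of breakdown, 4 had positive ratios, 2 passed 1.5-fold upward and 0 downward. The 1.5-fold limit was passed upward by 5.52% of all genes and downward by 12.0%, and 50.9% of all genes lay above 0. Ugp2, which makes the glucose donor UDP-glucose, had 270 FPKM with probucol and 177 FPKM without (0.61). Gys1, the glycogen synthase of muscle, had 38.6 and 25.3 FPKM (0.60). Gyg, the protein primer glycogenin, had 164 and 156 FPKM (0.08), and Gbe1, the branching enzyme, had 24.1 and 19.6 FPKM (0.30). Of the 4 genes whose levels are given here, Ugp2 and Gys1 lie above 0 when scaled to the cardiomyocyte markers.

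The phosphoglucomutases, which link glucose 1-phosphate and 6-phosphate, went apart. The row Pgm1 had 2.73 FPKM with probucol and 6.33 FPKM without (-1.08), and the row Pgm2 had 146 and 113 FPKM (0.37). RefSeq lists each of these symbols as an older name of the other gene, and 1099 symbols of the files are older names in that table. Which locus each row stands for was therefore not settled, and no position is given for them.

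For glycogen breakdown, Pygm (chromosome 19, 6384399 to 6398459) had 458 FPKM with probucol and 278 FPKM without (0.72). Pygb, the brain form that heart also makes, had 185 and 179 FPKM (0.05), and Pygl, the liver form, had 4.34 and 6.30 FPKM (-0.49). The muscle form was the highest of the 3 in both libraries. Phosphorylase kinase activates these enzymes, and its muscle subunit Phka1 (chromosome X, 102513975 to 102644246, minus strand) had 17.2 and 8.65 FPKM, from about 656 and 371 fragments or more. Its log2 ratio of 0.95 was the highest of the muscle list and was above the highest cardiomyocyte marker (0.63). The catalytic muscle subunit Phkg1 had 8.19 and 7.53 FPKM (0.11), so these subunits of the same kinase did not differ alike.

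Of the 7 pentose phosphate genes, 6 lay below 0 (median -0.22) and 2 were at least 1.5-fold lower, beside 12.0% of all genes. Over all genes 50.9% lay above 0. G6pdx, the glucose 6-phosphate dehydrogenase that opens the pathway (chromosome X, 74409483 to 74429194, minus strand), had 4.03 FPKM with probucol and 10.2 FPKM without, a log2 ratio of -1.24. It rested on about 65 and 185 fragments, with an interval of 0.293 to 0.526 for the FPKM ratio. Tkt, the transketolase that returns sugars to glycolysis, had 9.05 and 14.5 FPKM (-0.65). These were the enzymes with the lowest ratios at the NADPH-forming entry and in the later sugar exchange.

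None of the other 5 enzymes of the pathway passed 1.5-fold. Pgls, the lactonase, had 65.6 and 62.3 FPKM (0.07), and Pgd, the other NADPH-forming dehydrogenase, had 25.4 and 29.8 FPKM (-0.22). Taldo1, the transaldolase, had 81.4 and 85.9 FPKM (-0.08). Rpia and Rpe, which interconvert the pentose phosphates, had 11.8 and 12.4 FPKM (-0.07) and 7.40 and 8.79 FPKM (-0.23), and the intervals of Taldo1, Rpia and Rpe include equal levels. Scaled to the cardiomyocyte markers all 7 genes of the pathway lie below 0. G6pdx lay between the fibroblast median of -0.87 and the macrophage median of -1.61, and the proliferation markers had a median of -1.62. The part of those cells and of dividing cells was not tested.

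The hexosamine genes differed little. Gfpt1, the enzyme that starts the pathway, had 5.14 FPKM with probucol and 6.07 FPKM without (-0.22), and its relative Gfpt2 had 19.2 and 14.3 FPKM (0.41). Gfpt2 was the higher of the pair in both libraries. Gnpnat1, an acetyltransferase of the pathway, had 8.66 and 7.42 FPKM (0.21), and Ogt, which attaches the sugar to proteins, had 16.2 and 15.9 FPKM (0.02). None of the 4 passed 1.5-fold, and the 3 positive ratios are negative when scaled to the cardiomyocyte markers.

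Among the enzymes of reverse steps and glycerol phosphate, Fbp2, the muscle fructose bisphosphatase, had 30.8 FPKM with probucol and 19.0 FPKM without (0.68). Gpd1 and Gpd1l, cytosolic glycerol phosphate dehydrogenases, had 31.0 and 24.7 FPKM (0.32) and 30.3 and 23.5 FPKM (0.36), and both ratios are negative when scaled to the cardiomyocyte markers. Gpd2, the mitochondrial enzyme of the same shuttle, had 3.28 and 3.35 FPKM (-0.02). Fbp2, counted in the muscle list, was the only one of the 4 past 1.5-fold.

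The hypoxia factors differed in direction. Hif1a had 28.8 FPKM with probucol and 33.0 FPKM without (-0.19), while Epas1, its relative in endothelium and other cells (chromosome 17, 86753700 to 86833410), had 74.3 and 45.9 FPKM (0.69). Epas1 was at least 1.5-fold higher, and its log2 ratio is 0.20 when scaled to the cardiomyocyte markers. The 6 endothelial markers ranged from -0.24 to 0.40 and the 12 cardiomyocyte markers from 0.24 to 0.63. The part of those cells in Epas1 was not tested. Of the prolyl hydroxylases that mark these factors for removal, Egln1 had 159 and 129 FPKM (0.30, negative when scaled to the cardiomyocyte markers). Egln3, which is itself induced by hypoxia (chromosome 12, 54178981 to 54203860, minus strand), had 41.1 and 59.2 FPKM (-0.52), short of the 1.5-fold limit. Vhl, which binds the hydroxylated factors for removal, had 4.92 and 6.26 FPKM (-0.32), and its interval of 0.583 to 1.04 includes equal levels. These values are of transcripts, and the hypoxia factors are controlled mainly as proteins.

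Pathway genes outside the 55 were described by the same counts. Of 18 genes of glucose and lactate transport and pyruvate dehydrogenase, 15 lay above 0 (median 0.45, below 0 when scaled to the cardiomyocyte markers), 2 were at least 1.5-fold higher and 3 lower. Over all genes 5.52% were higher and 12.0% lower by that limit, and 50.9% lay above 0. Pdk2, a kinase that turns pyruvate dehydrogenase off, had 210 FPKM with probucol and 121 FPKM without (0.79), and Pdp2, a phosphatase that turns it on, had 4.45 and 2.36 FPKM (0.79). Slc16a3, the lactate exporter of glycolytic cells, had 1.71 and 6.27 FPKM (-1.61) from about 23 and 96 fragments, and Pdk3 had 1.83 and 3.21 FPKM (-0.67). Among 13 measured glycogen genes, 11 lay above 0 (median 0.22, likewise below 0 when so scaled) and 1 was at least 1.5-fold higher, Ppp1r3d (0.65), a subunit that directs a phosphatase to glycogen. Nhlrc1 (0.55) followed, and Phka2 (-0.31) and Ppp1r3a (-0.01) were the lowest.

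Other sugar phosphate and hexosamine genes were spread around 0, as were all genes, of which 50.9% lay above 0. Of 18 measured, 7 lay above 0 (median -0.12), with Bpgm (0.64), which makes bisphosphoglycerate in red cells, and Tigar (0.49), a phosphatase that lowers fructose 2,6-bisphosphate, as the highest. Rbks, the ribokinase, had 1.28 FPKM with probucol and 3.61 FPKM without (-1.21), from about 7 and 22 fragments, and Pck2 had -0.47. The 3 further hypoxia factors past the filter, Egln2, Arnt and Hif1an, lay between 0.05 and 0.30. Of 14 measured hypoxia response genes outside glycolysis, 8 lay above 0 (median 0.23), beside 50.9% of all genes. At least 1.5-fold higher were 0, beside 5.52% of all genes, and 2 were lower, beside 12.0% of all genes. The lower genes were Ankrd37 at 10.3 and 19.4 FPKM (-0.88) and the glucose transporter Slc2a1 at 6.07 and 9.63 FPKM (-0.63). Bnip3 (0.55), a mitophagy receptor, and Ddit4 (0.38) were the highest. Slc2a1 and Pdk1 are counted in the transport list too. The hypoxia response list thus had members in both directions, and under scaling to the cardiomyocyte markers Bnip3 alone of its 14 stays above 0.

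**Figure D3:**
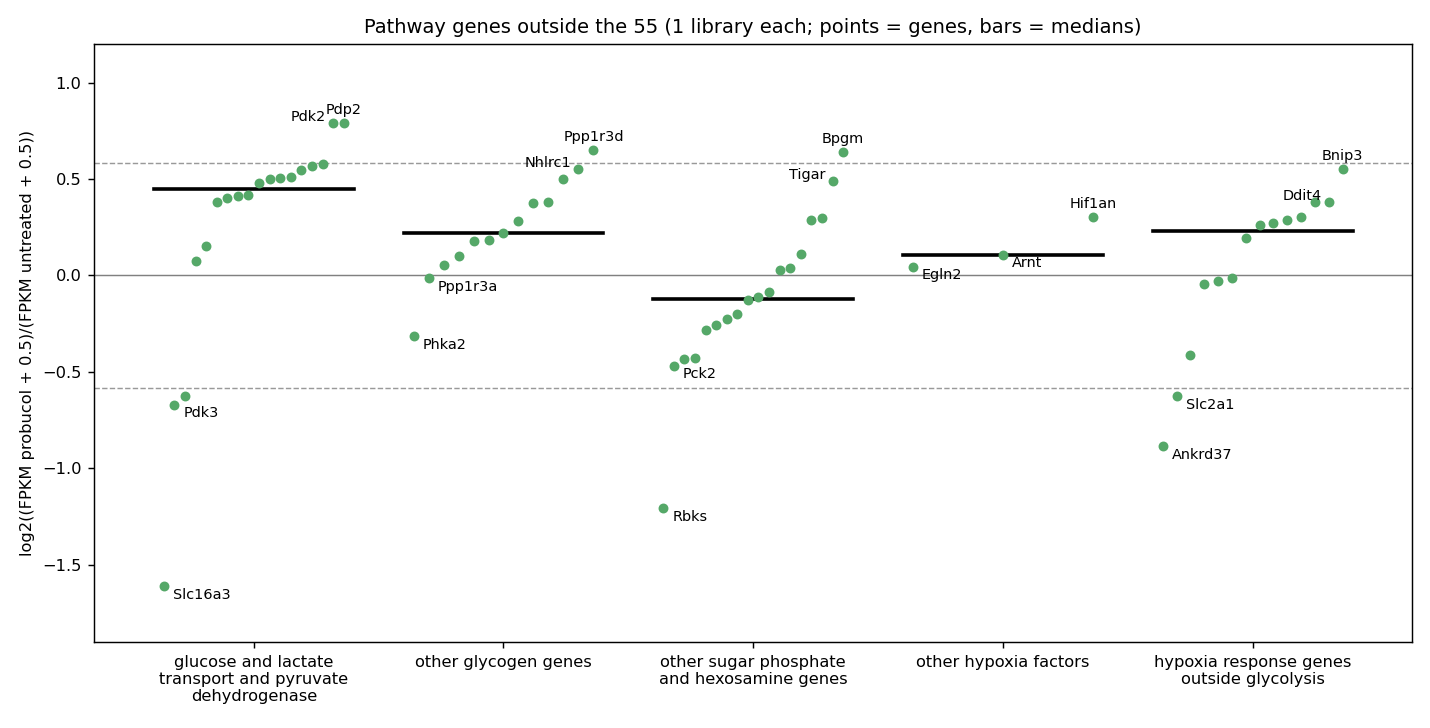
Log2 ratio of probucol over untreated FPKM (0.5 added to each) for measured genes of 5 lists outside the 55, from 1 library each, with bars for medians, dashed lines at 1.5-fold and names for the 2 highest and 2 lowest genes with at least 1 FPKM. Of the transport and pyruvate dehydrogenase genes, 15 of 18 lie above 0, up to Pdk2 and Pdp2 (0.79 each), and Slc16a3 (-1.61), Pdk3 (-0.67) and Slc2a1 (-0.63) lie below, and the hypoxia response list spans 0.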

How the data were processed

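The deposited values are FPKM, 1 per gene symbol and library, scaled by the authors. Per the submitters' processing notes, TopHat2 2.1.1, Bowtie2, Cuffdiff 2.2.1 and mm10 were used; the sources used here give neither their roles nor the annotation nor how libraries were scaled. Per the labels' protocols, libraries were TruSeq stranded mRNA. Groups came from the treatment labels. Log2 ratios used a pseudocount of 0.5 FPKM and genes with a mean of at least 0.5 FPKM, without rescaling, in Python 3.11.15 with pandas 2.3.3. Fragments were estimated with 220 bases subtracted from the shortest GENCODE M21 transcript with a RefSeq match, as the step of low values allows: 76.7% and 76.5% of low values were within 0.1 of a whole number with probucol and without, and 34 of the 55 genes have 1 such transcript. Intervals are exact binomial (Clopper-Pearson, scipy 1.17.1) and cover counting error only. All 55 genes are reported; of other pathway lists, the 2 highest and 2 lowest with at least 1 FPKM are named. The members, lists and motifs were chosen with earlier results of these data known. The calculation was tested on simulated libraries. Alternatives were other pseudocounts, filters and scalings.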

Additional observations from a re-analysis of the deposited data

How the results depend on the processing

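With a pseudocount of 0.1 or 1, a filter of 1 FPKM or none, and libraries scaled to the median or the trimmed mean of all genes (log2 shifts of 0.01 and 0.00420), the medians of all genes of the set, of muscle isoforms and of isoforms of other cells moved by at most 0.1, and the counts of higher and lower genes stayed within 1.5 times those reported. Scaled to the cardiomyocyte markers (shift 0.49), the median of the 54 genes changed sign to -0.38, that of muscle isoforms was 0.11 and that of isoforms of other cells was -0.79, with 0 genes at least 1.5-fold higher and 18 lower (1.09% and 33.3% of all genes), and 12 of the 54 lay above 0. This follows from the shift itself. In estimated fragments, where the short Pgam2 transcript and the Eno3 transcript weigh less, the gap in share was 10.9 percentage points for Pgam2 (6.07 in FPKM) and 5.95 for Eno3 (4.24 in FPKM). No replicate could be left out with 1 library a group. No paired analysis was possible because each group has 1 library. Depth limits Aldoc, Eno2, Pfkfb1 and Pfkfb3 most, and the spread between animals is unknown.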

Other observations

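Red cell transcripts were higher with probucol beside Bpgm. Bpgm had 40.2 FPKM with probucol and 25.6 FPKM without, and the 4 measured erythrocyte markers had a median log2 ratio of 0.99, with a summed level over the list of 3346 and 1720 FPKM. Whether Bpgm came from red cells was not tested. Of the other motifs searched in the promoter windows, GGGCGG was found for 5 of 12 muscle genes and 7 of 13 genes of other cells. For CACGTG those counts were 3 and 2, and for TATAAA they were 0 and 1.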
